A study of Mus musculus with 29 samples.

Results

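The genes described here were 10 early genes that neurons and other cells switch on after stimulation, chosen by name and matched to 10 of the 48709 Ensembl genes in the count tables. They were Fos, Fosb, Junb, Egr1, Egr2, Npas4, Nr4a1, Arc, Bdnf and Dusp1. RNA was sequenced from 29 mouse libraries after inhibition of the microRNA miR-99b-5p with a locked nucleic acid inhibitor (anti-miR-99b) or with a scrambled control oligonucleotide (sc-control). In the prefrontal cortex (PFC), both oligonucleotides were injected in lipid nanoparticles into male C57BL/6J mice of 3 months, and 1 hemisphere's PFC was taken 5 days later (3 anti-miR-99b and 3 sc-control mice). Primary microglia came from CD1 pups of postnatal day 1 and were treated for 48 hours in medium with L929-conditioned medium (4 and 4 libraries). In the co-culture, microglia treated in the same way were added for 48 hours to cortical neurons from CD1 embryos of day 17.5 (7 and 8 libraries), so that the neurons themselves were not the cells first given the inhibitor. The sources did not say that the culture libraries of a group came from separate preparations, so p-values there measure the spread between these libraries.

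Immediate early genes are transcribed within minutes of a stimulus without need of new protein. Calcium entry and kinase signalling act on CREB, serum response factor and MEF2 that already sit at their promoters. Fos, Fosb and Junb encode subunits of the AP-1 transcription factor, Egr1 and Egr2 encode zinc finger transcription factors, Nr4a1 encodes an orphan nuclear receptor and Npas4 encodes a transcription factor that is largely restricted to neurons and to calcium entry. Arc encodes a protein that regulates AMPA receptor endocytosis at synapses, Bdnf a secreted neurotrophin and Dusp1 a phosphatase that switches off MAP kinases. In the brain their transcripts are widely used as a readout of recent neuronal activity, and Fos, Junb, Egr1, Egr2 and Dusp1 are also induced in macrophages and microglia.

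The mature sequence of the inhibited microRNA is shown with its relatives that have the same seed (bases 2 to 8, in capitals), from RefSeq on GRCm38.p6, because the seed sets which transcripts could be direct targets.
miR-99b-5p: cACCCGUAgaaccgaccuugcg
miR-99a-5p: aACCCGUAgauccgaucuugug
miR-100-5p: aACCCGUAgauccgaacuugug
The 7-base match to this seed (TACGGGT) and the shorter match followed by A were both found in the annotated 3′ ends of 0 of the 10 early genes. Of 21039 genes with an annotated 3′UTR, 250 (1.19%) held TACGGGT and 428 (2.03%) held either match. No match says only that these letters were not there.

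RefSeq promoter windows (250 bases before to 50 after a start site, GRCm38.p6) were found for 8 of the 10 genes, 18 windows in all. They are shown for 5 genes that share the short cyclic AMP response element, since binding of CREB to this element is a known route from calcium to these genes. Capitals mark that element (TGACG, or CGTCA on the other strand), its full form TGACGTCA and the CArG box, the site of serum response factor.
Fos (chr12:85473640-85473939, plus strand): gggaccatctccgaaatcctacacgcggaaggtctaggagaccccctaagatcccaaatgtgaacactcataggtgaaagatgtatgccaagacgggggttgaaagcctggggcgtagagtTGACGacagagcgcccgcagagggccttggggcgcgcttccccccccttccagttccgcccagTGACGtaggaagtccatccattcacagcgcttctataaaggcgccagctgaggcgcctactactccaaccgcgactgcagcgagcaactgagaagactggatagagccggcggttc
Npas4 (chr19:4989922-4990221, minus strand): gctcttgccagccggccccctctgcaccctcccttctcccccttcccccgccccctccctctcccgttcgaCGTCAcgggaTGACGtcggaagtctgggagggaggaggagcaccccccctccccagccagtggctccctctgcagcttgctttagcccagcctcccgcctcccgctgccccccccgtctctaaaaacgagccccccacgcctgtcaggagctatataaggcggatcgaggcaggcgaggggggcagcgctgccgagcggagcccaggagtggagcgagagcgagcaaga
Nr4a1 (chr15:101266596-101266895, plus strand): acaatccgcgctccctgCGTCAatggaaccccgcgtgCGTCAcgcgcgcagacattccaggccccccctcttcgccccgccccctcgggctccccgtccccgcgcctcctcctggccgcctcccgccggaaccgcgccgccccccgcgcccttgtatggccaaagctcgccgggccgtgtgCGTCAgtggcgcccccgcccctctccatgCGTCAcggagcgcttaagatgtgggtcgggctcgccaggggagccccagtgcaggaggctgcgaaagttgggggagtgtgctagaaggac
Egr2 (chr10:67537619-67537918, plus strand): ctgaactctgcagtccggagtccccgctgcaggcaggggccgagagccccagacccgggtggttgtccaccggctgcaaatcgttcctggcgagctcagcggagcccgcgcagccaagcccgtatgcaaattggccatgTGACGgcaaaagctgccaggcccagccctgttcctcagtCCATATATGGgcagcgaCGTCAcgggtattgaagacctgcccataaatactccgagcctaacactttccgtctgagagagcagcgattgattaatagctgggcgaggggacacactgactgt
Dusp1 (chr17:26508423-26508722, minus strand): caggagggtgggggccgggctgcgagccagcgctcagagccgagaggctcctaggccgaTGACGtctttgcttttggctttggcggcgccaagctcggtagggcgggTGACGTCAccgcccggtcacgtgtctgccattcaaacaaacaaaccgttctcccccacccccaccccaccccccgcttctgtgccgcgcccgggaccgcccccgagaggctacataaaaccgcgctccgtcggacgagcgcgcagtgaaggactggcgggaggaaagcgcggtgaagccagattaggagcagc
The letters TGACG, searched on both strands, were in at least 1 window of 8 of these 8 genes and in 10 of the 18 windows, against 20.8% of all 32851 windows. The full element TGACGTCA, which contains TGACG, was in the Dusp1 window alone (1.79% of all windows). A CArG box was in 4 of the 5 Egr2 windows (1.63% of all windows). The Egr2 windows that start at 67537619, 67537620 and 67537680 overlap and hold the same CArG box and TGACG sites. Windows are thus not independent counts. The count of 8 of 8 genes takes any window of a gene, while 20.8% is a share of single windows. The AP-1 site TGACTCA and the EGR site GCGTGGGCG were in 0 of the 18 windows, against 5.2% and 0.612% of all windows. A window of 300 bases does not hold distal elements, and a match is a description of the letters.

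Between 21324156 and 37901110 reads per library were assigned to genes (median 28450652). The libraries carried the markers of their labels: summed over 8 neuronal markers (Rbfox3, Snap25, Syt1 and others) the level was 8633 to 9359 CPM (counts scaled to library size) in the PFC, 5989 to 6314 in the co-culture and 110 to 124 in microglia. Summed over 8 microglial markers (Cx3cr1, P2ry12 and others) it was 342 to 471 CPM in the PFC, 64.8 to 96.4 in the co-culture and 7615 to 8095 in microglia. Astrocyte markers (6 genes, Gfap, Aqp4 and others) summed to 1888 to 2175 CPM in the PFC and 1922 to 2027 CPM in the co-culture. In microglia they summed to 244 to 284 CPM, so both cultures also held astrocyte transcripts. The microRNA itself is not measured by these polyadenylated RNA libraries, so its inhibition was not checked here. On GRCm38 the gene bodies were annotated at chr12:85473890-85477273 (Fos, ENSMUSG00000021250, plus strand), chr7:19302696-19310051 (Fosb, ENSMUSG00000003545, minus strand), chr8:84974484-84978718 (Junb, ENSMUSG00000052837, minus strand), chr18:34859823-34864984 (Egr1, ENSMUSG00000038418, plus strand), chr10:67535475-67542188 (Egr2, ENSMUSG00000037868, plus strand), chr19:4984355-4990316 (Npas4, ENSMUSG00000045903, minus strand), chr15:101254269-101274795 (Nr4a1, ENSMUSG00000023034, plus strand), chr15:74669083-74672570 (Arc, ENSMUSG00000022602, minus strand), chr2:109674700-109727007 (Bdnf, ENSMUSG00000048482, plus strand), chr17:26505590-26562128 (Dusp1, ENSMUSG00000024190, minus strand), and reads were counted over their exons. In bulk samples, fewer cells of a type and less RNA per cell cannot be told apart.

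The early genes differed in level between the preparations, from up to 4.24-fold in mean TPM for Egr2 to 619-fold for Arc, and the sc-control libraries are given first. Levels between genes are compared in TPM, which also divides by transcript length. In the sc-control PFC, Arc had the highest level (643 TPM), followed by Egr1 (517), Nr4a1 (243), Junb (208) and Fos (133), while Dusp1 (75.6), Npas4 (61.9), Egr2 (28.6), Bdnf (26.8) and Fosb (19.9) were lower. In sc-control microglia the order was another one: Junb (220 TPM) and Fos (99.2) led, Egr1 (37.95), Egr2 (29.5) and Dusp1 (22.4) followed, and Nr4a1 was at 5.48 TPM. Npas4 (1.46), Arc (1.04), Fosb (0.40) and Bdnf (0.20) were close to the floor there, the last with 5 to 14 reads per library. In the sc-control co-culture the levels were low throughout: Egr1 (24.97), Junb (21.99), Dusp1 (13.7), Fos (13.3) and Nr4a1 (12.5) led, then Bdnf (8.90), Npas4 (8.04), Egr2 (6.95) and Arc (6.23), and Fosb was at 0.55.

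Across preparations, 8 of the 10 genes were highest in the PFC. For 5 of them (Arc, Npas4, Nr4a1, Bdnf and Fosb) the co-culture came next and microglia last, and for Fos, Egr1 and Dusp1 microglia came second and the co-culture last. Arc showed the widest gap, with a mean TPM 103-fold higher in the sc-control PFC than in the sc-control co-culture and 619-fold higher than in sc-control microglia. Bdnf, by contrast, was only 3.01-fold higher in the PFC than in the co-culture. Junb and Egr2 were the exceptions: their microglial and PFC libraries overlapped, with a PFC level 0.948 and 0.971 times that of microglia. Fos in the PFC was 1.34 times its microglial level in TPM, where the libraries did not overlap, but 1.15 times in CPM, where they did (65.6 to 94.7 CPM in the PFC, 63.3 to 73.0 CPM in microglia). In TPM the sc-control co-culture libraries overlapped with neither the PFC nor the microglia for each of the 10 genes. In CPM this held for all but Fosb, which was at 0.719 to 0.951 CPM in the co-culture and 0.596 to 0.818 CPM in microglia, with 16 to 33 reads per library. The preparations also differed in mouse strain, age and whether cells were cultured, which cannot be told apart from cell type here, so no test was made of these levels.

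**Figure D1:**
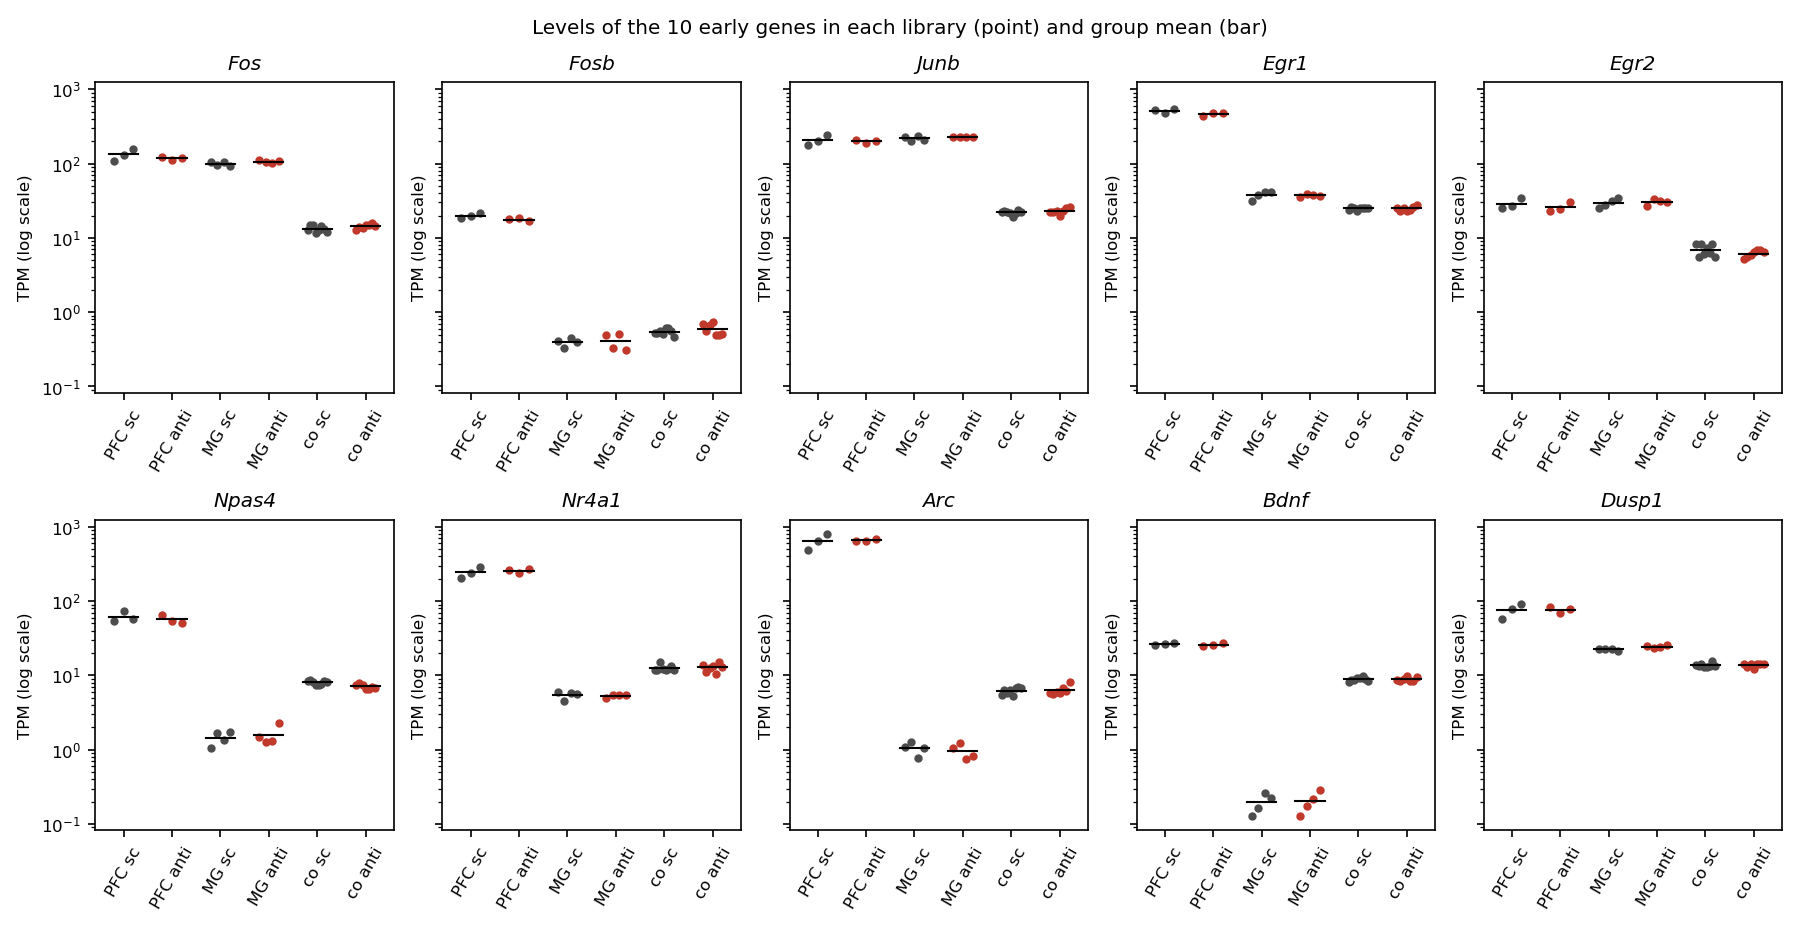
TPM of each early gene (log axis, the same in each panel) by library (points) in the 6 groups, with the group mean as a bar; sc-control is grey, anti-miR-99b is red, MG is microglia and co is the co-culture. Arc, Npas4, Nr4a1, Bdnf and Fosb fall by steps from PFC to co-culture to microglia, while Junb and Egr2 lie as high in microglia as in the PFC, and the red and grey points lie close together in each preparation.

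None of the 10 genes passed the test between anti-miR-99b and sc-control in the PFC. With edgeR's quasi-likelihood test, an adjusted p under 0.1 and a log2 fold change beyond 0.2, 0 of 10 were called, against 0.0864% of the 17364 genes tested (15 genes, all higher). The median log2 fold change of the 10 genes was -0.11, against 0.0025 over all genes tested, and 7 of 10 were below 0. An unadjusted p under 0.05 was found for 1 of 10 (Fosb), against 7.64% of all genes.

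Among the AP-1 genes, Fos was at 70.2, 66.9 and 68.5 CPM after anti-miR-99b and at 65.6, 75.8 and 94.7 CPM after sc-control (log2 fold change -0.20, SE 0.12, edgeR adjusted p = 0.675). The lowest of the 6 values and the 2 highest were all sc-control mice. Fosb, whose splice form ΔFosB is a long-lived marker of repeated activity, was at 27.2, 28.7 and 25.7 CPM after anti-miR-99b and at 29.6, 29.8 and 34.2 CPM after sc-control. Fosb was the 1 of 10 genes whose groups did not overlap, against 13.3% of all genes tested, and the log2 fold change of -0.20 (SE 0.08) missed the threshold with an edgeR adjusted p of 0.649. An exact two-sided permutation test gave p = 0.1, the smallest that 3 against 3 mice allow. Any gene without overlap reaches that value. Junb was at 119, 111 and 115 CPM against 107, 112 and 142 CPM (log2 fold change -0.07, SE 0.10).

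Of the zinc finger genes, Egr1 was at 487, 539 and 526 CPM after anti-miR-99b and at 601, 527 and 625 CPM after sc-control, with 1 sc-control mouse inside the anti-miR-99b range (log2 fold change -0.18, SE 0.08, edgeR adjusted p = 0.660). Egr2 was at 19.4, 20.8 and 24.96 CPM against 21.9, 22.1 and 29.4 CPM (log2 fold change -0.17, SE 0.13). The nuclear receptor gene Nr4a1 was at 224, 209 and 229 CPM against 185, 206 and 253 CPM (0.04, SE 0.11 on the log2 scale). Npas4 was at 66.7, 56.2 and 51.3 CPM after anti-miR-99b and at 56.8, 75.1 and 60.9 CPM after sc-control (log2 fold change -0.15, SE 0.12), again with overlap.

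The effector genes differed in how tightly the mice agreed. Arc was at 491, 501 and 513 CPM after anti-miR-99b and at 381, 485 and 617 CPM after sc-control, so both extremes were controls and the means were almost equal (log2 fold change 0.02, 95% interval -0.29 to 0.33). Bdnf was at 38.3, 39.7 and 41.4 CPM against 41.6, 40.5 and 43.5 CPM (-0.07, 95% interval -0.23 to 0.08 on the log2 scale). Dusp1 was at 68.6, 57.9 and 62.5 CPM against 49.1, 63.5 and 76.1 CPM (log2 fold change 0.00, 95% interval -0.30 to 0.31). These intervals still allow changes of up to about the size of their ends in either direction.

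A single control mouse stood apart in this gene group. The sc-control mouse 4 had the highest level of the 6 mice for 9 of the 10 genes, all but Npas4, with a median log2 ratio of 0.25 to the mean of the 6 mice, and sc-control mouse 2 had the lowest level for 5 genes (median log2 ratio -0.12). Among the sc-control mice the SD on the log2 scale was larger than among the anti-miR-99b mice for 9 of the 10 genes, which holds for 35.8% of all genes tested. The 10 genes were measured in the same 3 mice per arm, so they are not independent counts. For Arc the SD was 0.35 in sc-control and 0.03 in anti-miR-99b mice, and for Fos 0.27 and 0.03. Bdnf was the exception, with 0.05 and 0.06.

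**Figure D2:**
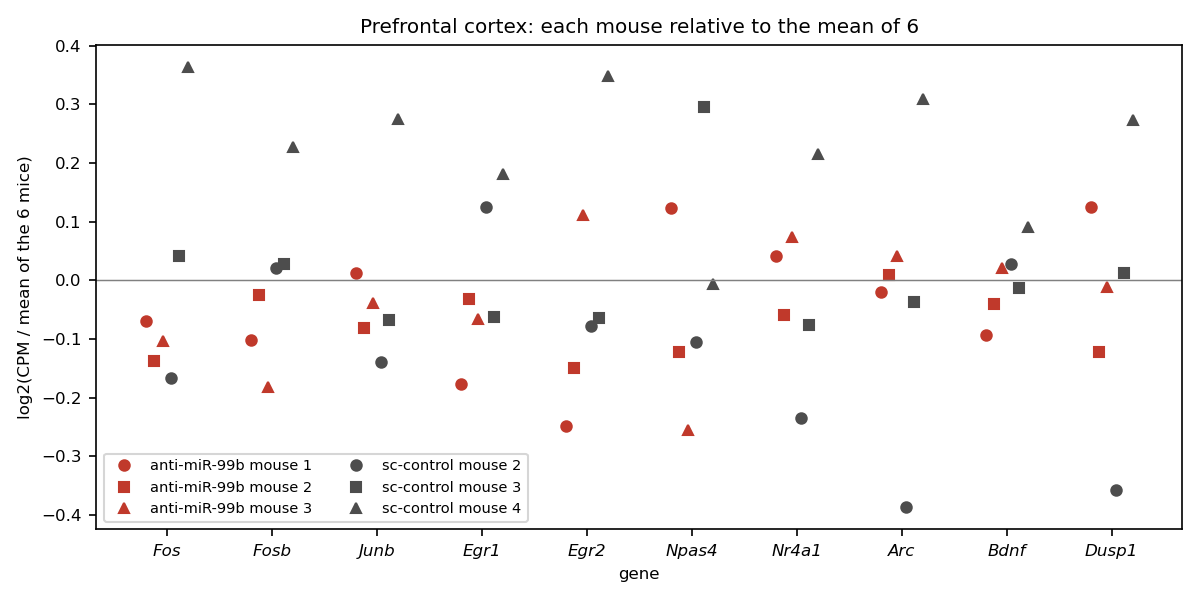
The log2 ratio of each PFC mouse to the mean of the 6 mice for each early gene, from CPM (red, anti-miR-99b; grey, sc-control; the shape marks the mouse). The grey triangles of sc-control mouse 4 lie highest for 9 of 10 genes and the grey circles of mouse 2 lie lowest for 5, among them Arc and Dusp1.

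The libraries of sc-control mouse 4 and anti-miR-99b mouse 3 were on sequencing lane 7 and the other 4 PFC libraries on lane 6. Within lane 6 (2 against 2 mice) the log2 difference was 0.07 for Junb, 0.15 for Nr4a1, 0.20 for Arc and 0.17 for Dusp1, while within lane 7 (1 against 1) it was -0.31, -0.14, -0.27 and -0.28, so that these 4 of the 10 genes differed in sign between the lanes. The other 6 genes were below 0 in both lanes. For Fos the difference was -0.04 in lane 6 and -0.47 in lane 7, and for Fosb -0.09 and -0.41. Egr1 (-0.14 and -0.25), Egr2 (-0.13 and -0.24) and Npas4 (-0.10 and -0.25) were also further below 0 in lane 7, and Bdnf was at -0.07 in both. Without sc-control mouse 4 the Junb log2 fold change turned to 0.07. Markers of striatum, which borders a PFC dissection, summed to 118 to 157 CPM after anti-miR-99b and 105 to 245 CPM after sc-control, with 5 of 5 genes below 0 and 0 of 5 called, and 5 of 5 heat shock genes were also below 0 with 0 called. Microglial markers summed to 431 to 471 CPM against 342 to 437 CPM. Their part in the early gene values was not tested.

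In microglia, 0 of the 10 genes were called at an adjusted p under 0.1 and a log2 fold change beyond 0.1, against 0.488% of the 14953 genes tested (73 genes). The median log2 fold change of the 10 was 0.06, against 0.0025 over all genes, and 7 of 10 were above 0. An unadjusted p under 0.05 was found for 2 of 10, Fos and Dusp1, against 6.45% of all genes.

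Fos was at 78.2, 73.6, 70.7 and 74.6 CPM in the anti-miR-99b libraries and at 73.0, 66.4, 70.7 and 63.3 CPM in the sc-control libraries. The groups overlapped, and the log2 fold change of 0.12 (SE 0.04) had an edgeR adjusted p of 0.490. Fos was called when sc-control replicate 2, its highest sc-control library, was left out (log2 fold change 0.15, edgeR adjusted p = 0.0336). It was also called without a filter on low counts (0.13, edgeR adjusted p = 0.0848). Over all genes, 409 and 167 were called in these settings, against 73 in the main fit. Dusp1 was at 24.04, 22.8, 23.6 and 25.004 CPM against 22.4, 21.9, 21.7 and 20.8 CPM, so that each anti-miR-99b library lay above each sc-control library; it was the 1 of 10 genes without overlap, against 3.44% of all genes. Its log2 fold change of 0.14 (SE 0.05) had an edgeR adjusted p of 0.476. The exact two-sided permutation test gave p = 0.0286, unadjusted for the 10 genes and the smallest that 4 against 4 libraries allow. Any gene without overlap reaches that value, so the test adds nothing to the lack of overlap. Within the lanes, each with 2 against 2 libraries, the log2 difference was 0.12 and 0.12 for Fos and 0.08 and 0.19 for Dusp1.

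For the other early genes that microglia express at some level, the 95% intervals of the log2 fold change included 0. Junb was at 152, 155, 155 and 153 CPM in the anti-miR-99b libraries and at 159, 136, 157 and 140 CPM in the sc-control libraries (log2 fold change 0.06, SE 0.04). Egr1 was at 46.7 to 52.5 CPM against 42.3 to 54.0 CPM (-0.01 on the log2 scale, 95% interval -0.13 to 0.11), and Egr2 at 26.6 to 34.1 CPM against 25.3 to 33.7 CPM (0.06, 95% interval -0.09 to 0.21). Nr4a1 was at 5.11 to 5.71 CPM against 4.65 to 6.27 CPM (-0.02, 95% interval -0.21 to 0.17). For Npas4, Arc, Fosb and Bdnf the libraries held 5 to 79 reads each, so that small changes could not be seen at these counts: the 95% interval of the log2 fold change ran from -0.65 to 0.67 for Bdnf and from -0.52 to 0.37 for Arc.

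In the co-culture, 0 of the 10 genes were called at an adjusted p under 0.05 and a log2 fold change beyond 0.1, against 1.4% of the 16193 genes tested (227 genes). The median log2 fold change was 0.03, against 0.0025 over all genes tested, and 8 of 10 were above 0. Npas4 was the 1 of 10 genes with an unadjusted p under 0.05, against 13.2% of all genes, and the groups overlapped for each of the 10 genes (0 without overlap, against 0.58% of all genes). It was at 6.64 to 8.28 CPM in the 7 anti-miR-99b libraries (median 7.26) and at 7.56 to 8.75 CPM in the 8 sc-control libraries (median 8.27), which overlapped. The log2 fold change was -0.16 (SE 0.05, edgeR adjusted p = 0.170), and an exact two-sided permutation test of the single gene gave p = 0.0109, unadjusted for the 10 genes. In each of the 4 lanes the mean was lower with anti-miR-99b, by a log2 difference of -0.12, -0.03, -0.19 and -0.27, with 1 to 3 libraries per arm and lane. Over the alternatives the adjusted p ran from 0.0806 to 0.549.

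Of the AP-1 genes in the co-culture, Fos was at 7.41 to 9.41 CPM with anti-miR-99b (median 8.31) against 6.73 to 8.75 CPM (median 7.52), with a log2 fold change of 0.12 (SE 0.06, edgeR adjusted p = 0.415). Junb was at 11.4 to 15.0 CPM against 10.8 to 13.4 CPM (0.09, SE 0.05), and Fosb at 0.764 to 1.15 CPM against 0.719 to 0.951 CPM (0.13, SE 0.13). Egr2 was lower by its mean, at 4.37 to 5.88 CPM against 4.61 to 6.94 CPM (-0.18, SE 0.09, adjusted p = 0.427). For Egr1 (0.01), Nr4a1 (0.04), Arc (0.04), Bdnf (0.01) and Dusp1 (0.02) the log2 fold changes were within 0.05 of 0. Of these, Bdnf had the interval -0.08 to 0.10 and Egr1 -0.06 to 0.09, while that of Nr4a1 was wider, at -0.10 to 0.19. Of the microglial markers, 4 of 8 (Cx3cr1, Csf1r, C1qa and Trem2) were called higher with anti-miR-99b in these libraries. Over all genes, 1.4% were called in either direction. Aif1, P2ry12 and Tmem119 were above 0 and Itgam was below 0 (log2 fold change -0.24), none of them called. The list of 8 summed to 83.3 to 96.4 CPM against 64.8 to 85.0 CPM. The part of this shift in the levels of Fos, Junb and Egr2, which microglia also express, was not tested.

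**Figure D3:**
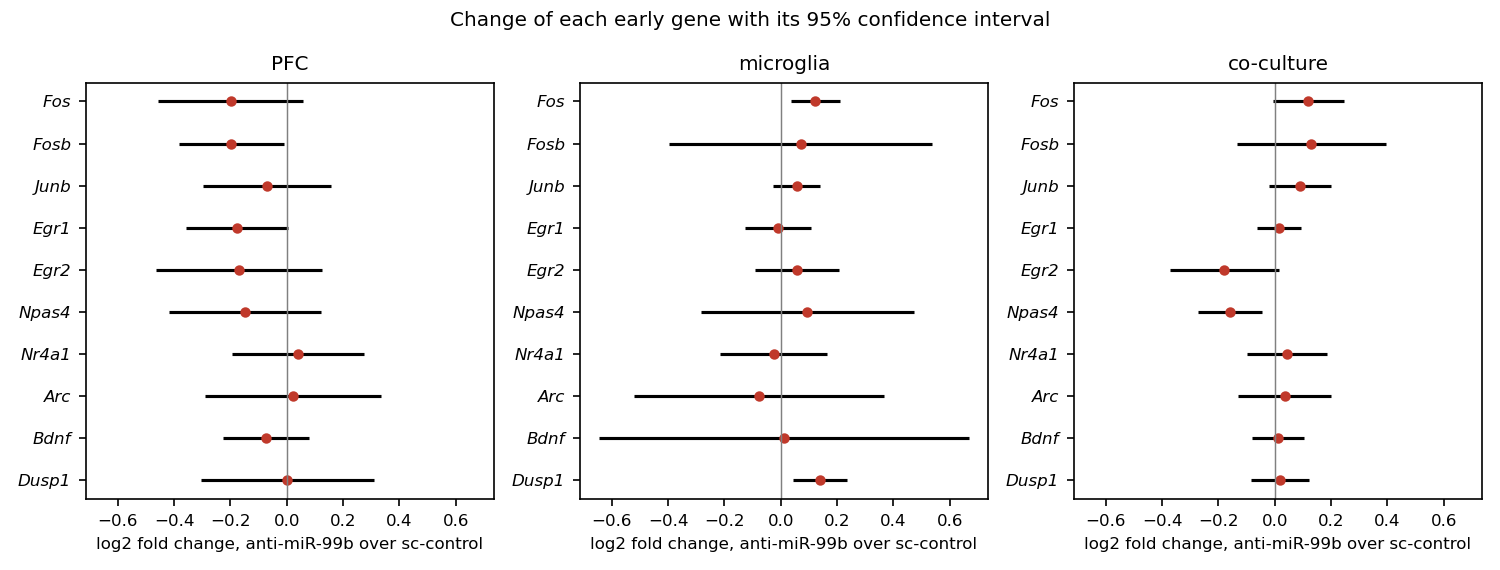
Log2 fold change of each early gene (anti-miR-99b over sc-control, points) with its 95% confidence interval (lines) in the 3 experiments, on 1 axis. Most intervals include 0; those that do not are Fosb in the PFC, Fos and Dusp1 in microglia and Npas4 in the co-culture, none of which passed the adjusted threshold.

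Whether the response differed between experiments was tested in 1 fit over the 29 libraries. That fit shared 1 estimate of each gene's spread across the 3 experiments. The median within-group SD of the 10 genes was 0.18 in the PFC, 0.15 in microglia and 0.11 in the co-culture. SEs and adjusted p-values of contrasts with the PFC can therefore be too small. For Fos, the PFC effect fitted alone already had an SE of 0.12. The effect differed at an adjusted p under 0.05 for 0 of the 10 genes in each of the 3 contrasts, against 0.791% of 18963 genes for PFC minus co-culture, 0.469% for PFC minus microglia and 0.0844% for co-culture minus microglia. Fos was nearest, with a log2 fold change lower in the PFC than in microglia by a difference of -0.34 (SE 0.10, edgeR adjusted p = 0.129) and than in the co-culture by -0.31 (SE 0.11, adjusted p = 0.152). The genes of this group were not shown to respond differently in the 3 experiments.

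By the median SD, the early genes spread more among sc-control than among anti-miR-99b mice in the PFC (3 per arm, not tested). The sc-control spread includes mouse 4, highest of all for 9 of the 10 genes, and mouse 2, lowest for 5. The 10 genes are thus not independent observations of the spread. The median SD on the log2 scale was 0.22 for the 10 genes against 0.0975 for all genes tested among sc-control mice. Among anti-miR-99b mice it was 0.0728 against 0.13, though Npas4 (0.19) and Egr2 (0.18) lay above 0.13. All genes were not matched to the early genes for level in these comparisons. Pooled over both arms, the median within-group SD was 0.18 against 0.13 in the PFC, 0.15 against 0.08 in microglia and 0.11 against 0.09 in the co-culture. In microglia (0.11 against 0.0605 with anti-miR-99b, 0.17 against 0.0808 with sc-control) and the co-culture (0.12 against 0.0919, 0.0884 against 0.0763) the median of the 10 genes was above that of all genes in both arms. In the PFC, Arc was the most variable (0.25, above 87.9% of genes) and Bdnf the least (0.05, above 8.67%). Microglial Npas4 had the highest SD (0.28) at 28 to 79 reads per library, so counting error adds to it, and Dusp1 the lowest (0.05). Counting error also adds to the other low-count genes there, Fosb (0.18), Arc (0.20) and Bdnf (0.20). The 0.5 CPM added before the log narrows the SD of genes near that level, most for Bdnf (means of 0.36 and 0.37 CPM). The order of these low-count genes by SD thus holds on that scale only. Of the better-counted genes, Fos (0.0774) and Junb (0.0821) were near the pooled median of all genes (0.0759), and Dusp1 below it. Egr1 (0.13), Egr2 (0.16) and Nr4a1 (0.13) were above it. Egr2 was the most variable in the co-culture (0.20) and Egr1 the least (0.07). With the lane means also removed, the PFC median fell to 0.13, that of microglia to 0.11 and that of the co-culture to 0.09.

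In the PFC the early genes varied together from mouse to mouse. After the group means were removed, 40 of the 45 pairs of genes had a positive Pearson r over the 6 mice (median r 0.54, median Spearman rho 0.43), where 50% of all gene pairs were positive. This rested on sc-control mouse 4: without it 22 of 45 pairs were positive and the median r was -0.05, and without each of the other 5 mice in turn it lay between 0.56 and 0.70. No such pattern was found in microglia, with 21 of 45 positive pairs and a median r of -0.11 over 8 libraries, or in the co-culture, with 28 of 45 and a median r of 0.10 over 15 libraries. The points share library, depth and lane, and these values are descriptions.

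**Figure D4:**
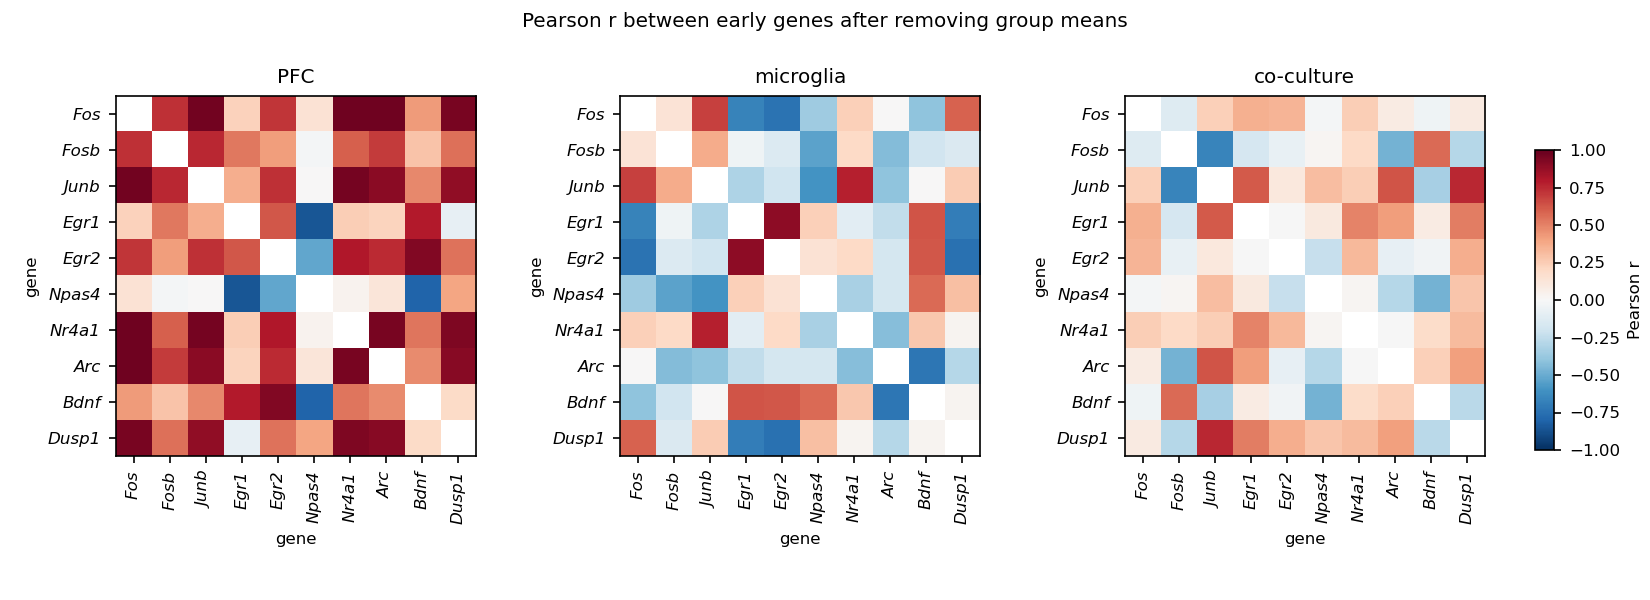
Pearson r between each pair of early genes after removal of the group means, in the PFC (6 mice), microglia (8 libraries) and the co-culture (15 libraries); red is positive, blue negative, and the diagonal is blank. Positive pairs fill most of the PFC panel (40 of 45) and are mixed with negative ones in the other panels.

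Of 17354 other genes in the PFC, those most like the mean of the 10 early genes by Pearson r were Ncf1 (r = 0.997, n = 6), Clec7a (0.995) and Trib1 (0.994). Trib1 encodes a pseudokinase and was on the list of other activity-induced effectors, while Ncf1 and Clec7a were on none of the lists used here. Without sc-control mice 2 and 4, the farthest from the others in that mean, r was 0.985 for Ncf1, 0.898 for Clec7a and 0.996 for Trib1. These values rest on the 4 mice left, sc-control mouse 3 and the anti-miR-99b mice, with the group means not taken anew. In microglia they were Ahdc1 (0.971, n = 8), Nr2f1 (0.966) and Zfhx2 (0.960), and in the co-culture Tspan17 (0.843, n = 15), Frs3 (0.843) and Mon1a (0.831). These genes were picked as the highest values among all genes compared, and the values are descriptions.

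In the wider activity programme 2 genes were called, both in the co-culture. Over all genes tested, 0.0864% were called in the PFC, 0.488% in microglia and 1.4% in the co-culture. Of 20 other activity-induced transcription factors, 0 were called in the PFC and 0 of 19 tested in microglia, and in the co-culture 1 of 20 was called higher, Atf3. Atf3, a stress- and injury-induced transcription factor, had a mean of 6.76 CPM with anti-miR-99b against 5.49 CPM (log2 fold change 0.29, SE 0.07, edgeR adjusted p = 0.0234); it was not called with lane as a block. Atf3 was at 255 and 249 CPM in anti-miR-99b and sc-control microglia, far above its co-culture level, and the part of the higher microglial markers in its change was not tested. Of 25 other activity-induced effectors, 0 were called in each of the 3 experiments (25, 23 and 25 tested), with unadjusted p under 0.05 for 1, 8 and 5 of them in the PFC, microglia and co-culture, against 7.64%, 6.45% and 13.2% of all genes. In microglia 17 of the 23 effectors were above 0, with a median log2 fold change of 0.07 against 0.0025 over all genes tested. Of 21 upstream regulators and receptors, such as the serum response factor and its coactivators, 0 were called in the PFC and microglia, and in the co-culture 1 was called lower, Mrtfb, a coactivator of serum response factor (98.4 against 106 CPM, log2 fold change -0.11, SE 0.03, edgeR adjusted p = 0.0460), again not with lane as a block. In the co-culture 17 of the 21 regulators were below 0, with a median log2 fold change of -0.04 against 0.0025 over all genes tested. An unadjusted p under 0.05 was found for 2, 0 and 8 of the 21 regulators in the PFC, microglia and co-culture. For the other transcription factors it was found for 0 of 20, 1 of 19 and 2 of 20.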

How the data were processed

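The deposited tables held raw counts of reads per Ensembl gene. Per the labels and the study's methods, the authors sequenced polyadenylated RNA as single reads of 50 bases. Their processing notes name bcl2fastq 2.20.2, FastQC 0.11.5, STAR 2.5.2b, featureCounts 1.5.1 and the build mm10. The annotation release and the strand setting were not given in the sources used here, so reads of Junb and its neighbour Prdx2, of Bdnf and its antisense transcript, and of Dusp1 and Ergic1 may not be told apart. Symbols, gene lengths and 3′UTRs came from GENCODE on GRCm38 (48349 of 48709 IDs matched).

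Each experiment was fitted alone with edgeR 4.0.16 (R 4.3.3; TMM, filterByExpr, quasi-likelihood test, Benjamini-Hochberg over all genes tested). A call needed an adjusted p under 0.1 with a log2 fold change beyond 0.2 (PFC) or 0.1 (microglia), and an adjusted p under 0.05 with 0.1 (co-culture). No threshold was stated for microglia. CPM used TMM library sizes, and SDs and correlations used log2(CPM + 0.5). TPM used merged exon lengths. Levels are means of replicates, and 95% intervals come from the edgeR fit. The fit was checked on simulated data. Figures were drawn with matplotlib 3.10.9.

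Alternatives were DESeq2 1.42.0, RLE normalization, no filter, sequencing lane or replicate number as a block, a RUVs factor, another threshold and, in the PFC and microglia, each library left out in turn. No library was left out in the co-culture. The members and lists were chosen with earlier results of these data known. Named genes were the 10 members, up to 5 called genes of each other list and the 3 genes most like the members' mean. No replicates were counted as duplicates.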

Additional observations from a re-analysis of the deposited data

Results flagged for a closer look

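Of 40 gene and group pairs with 4 to 10 libraries, 3 had 1 library far from the others of its group, where chance gives about 1 in 20. Nr4a1 was at 5.11 CPM in replicate 1 of anti-miR-99b microglia, below the next library at 5.61 CPM. In the sc-control co-culture, Nr4a1 was at 12.9 CPM in replicate 4, above the next at 11.4 CPM, and Dusp1 was at 12.9 CPM in replicate 11, above the next at 11.4 CPM. The PFC groups of 3 mice were too small for this rule.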

How the results depend on the processing

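No early gene was called in the co-culture under the 7 alternatives run, none of which left out a library (lowest adjusted p 0.0806, Npas4), or in the PFC other than with the crosswise pairing given further on. In microglia 1 (Fos) was called without a filter on low counts and 0 to 1 when single libraries were left out (1 without sc-control replicate 2). The median SD of the members, the count of members with a differing effect (0 by separate fits and with RLE) and the 8 genes highest in the PFC stayed within 1.5 times.

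The number of genes called depended on the settings; the cause was not tested. In the PFC, 15 genes became 84 with DESeq2, 412 with no filter, 77 with lane as a block and 315 with a RUVs factor, and 1 to 201 with single mice left out (201 without sc-control mouse 4, 1 without sc-control mouse 2 or anti-miR-99b mouse 2). In microglia, 73 became 40 with DESeq2, 167 with no filter, 158 with a RUVs factor, and 2 to 409 with single libraries left out (409 without sc-control replicate 2, 2 without sc-control replicate 4). In the co-culture, 227 became 121 with lane as a block and 515 with a RUVs factor.

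In the other lists, no filter gave 1 transcription factor and 1 effector in the PFC, 2 effectors in microglia, and 1 effector and 2 regulators in the co-culture. Microglial effectors numbered 0 to 3 when single libraries were left out. In the co-culture, lane as a block gave 0 transcription factors and 0 regulators, a RUVs factor 1 effector and 2 regulators, and DESeq2 2 regulators.

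Whether the replicate numbers pair the samples was not settled. Same-numbered deviations correlated at 0.0476 and -0.2846 in the PFC, -0.0505 and -0.0381 in microglia and -0.0145 to 0.0469 in the co-culture. So few pairs cannot decide it, and the PFC libraries numbered 3 were on different lanes (7 and 6). With the replicate block, fitted where a number is present in both arms, 518 genes were called in the PFC, 249 in microglia (with 1 effector) and 93 in the co-culture (0 transcription factors, 0 regulators). The block turned the log2 fold change to 0.0477 for Junb and 0.0564 for Egr2 in the PFC, to 0.0023 for Egr1, -0.20 for Npas4, 0.0892 for Nr4a1, 0.012 for Arc and -0.11 for Bdnf in microglia, and to -0.0144 for Arc in the co-culture. A crosswise pairing of the shared PFC numbers, added after seeing the data, called 638 genes, 2 members and 2 other transcription factors, and turned Junb to 0.0481 and Egr2 to 0.0608; the members were Npas4 (-0.28, adjusted p = 0.0266) and Arc (0.24, adjusted p = 0.0687).

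Small changes also turned sign elsewhere. Dusp1 in the PFC was at -0.0087 with DESeq2, -0.0035 with RLE and -0.0151 with no filter, and Arc in the co-culture at -0.0051 with lane as a block. With single libraries left out, the log2 fold changes in the PFC ran from -0.15 to 0.0669 (Junb), -0.0579 to 0.17 (Nr4a1), -0.14 to 0.21 (Arc) and -0.15 to 0.16 (Dusp1). In microglia they ran from -0.0705 to 0.18 (Fosb), -0.073 to 0.0329 (Egr1), -0.12 to 0.19 (Npas4), -0.10 to 0.0197 (Nr4a1), -0.22 to 0.0349 (Arc) and -0.19 to 0.17 (Bdnf).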
